A study of Mus musculus with 2 samples.

Results

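The cells described here were selected for high fibrillar collagen mRNA among single cells of subcutaneous MC38 tumors. They were chosen by measured values: at least 2% of a cell's UMIs (unique molecular identifiers, one per captured mRNA molecule) had to come from Col1a1, Col1a2 and Col3a1 together, with no UMI of Ptprc (CD45) or Cdh5 (VE-cadherin) and at most 2 UMIs of C1qa, C1qb and C1qc together. The gate was met by 240 of the 25402 cells that passed the quality filter (a minimum of 500 genes and 1000 UMIs, and no more than 15% of UMIs from mitochondrial transcripts). Of these, 145 were among 13542 cells of the wild-type (WT) library, a share of 1.07% (95% exact binomial interval 0.904 to 1.26), and 95 were among 11860 cells of the Lmo7-/- library, a share of 0.801% (0.649 to 0.978). All intervals given here cover counting error only. The label tumor fibroblasts held for 151 of the 240 cells, and the other 89 held little Thy1, Lum or Lox and showed the chromosome expression profile of the tumor cells, so the whole set is called the collagen-high cells below.

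The tumors came from MC38, a mouse colon adenocarcinoma line of C57BL/6 origin, grown under the skin of young adult female C57BL/6 hosts. Hosts were either Lmo7+/+ (WT) or carried a germline, whole-body loss of both Lmo7 alleles (Lmo7-/-), and the implanted line was the same in both, so that tumor cells did not differ in genotype by design. Live tumor cells were sorted by flow cytometry without selection for fibroblasts, and each genotype gave 1 library. The number of mice behind each library was not given in the sources used here. With 1 library per genotype no difference between genotypes could be tested, and each ratio below compares these 2 libraries. Lmo7 encodes a LIM domain and PDZ protein of cell junctions and the actin cytoskeleton.

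Fibroblasts are mesenchymal cells that build and remodel the extracellular matrix. Collagen I is a trimer of the Col1a1 and Col1a2 chains, and collagen III is made of the Col3a1 chain alone. In tumors, fibroblasts are commonly divided into contractile, matrix-depositing myofibroblastic cells, cytokine-secreting inflammatory cells, and Pi16 or Dpp4 positive cells that resemble those around the vessels of many healthy tissues.

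The WT library held 16208 barcodes and 98582479 UMIs as deposited, and the Lmo7-/- library 15163 barcodes and 80648345 UMIs. The collagen-high cells contributed 770768 UMIs in WT, with a median of 3296 per cell (1010 to 19783) and 1575 genes. In Lmo7-/- they contributed 569360 UMIs, with a median of 4286 per cell (1013 to 25095) and 1896 genes. The median over all kept cells was 4535.5 UMIs in WT and 4304.5 in Lmo7-/-, so the WT collagen-high cells were shallower than their library and the Lmo7-/- cells were close to theirs. The libraries shared 279 barcodes. No barcode was a collagen-high cell in both, and 4 collagen-high cells had their barcode in the other library.

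The collagen share, which the gate used, ran from 2.01% to 13.4% of a cell's UMIs in WT (median 4.5%) and from 2.04% to 20.6% in Lmo7-/- (median 5.64%). Col1a1 lies at chr11:94936224-94953042 (plus strand), Col1a2 at chr6:4504814-4541544 (plus) and Col3a1 at chr1:45311538-45349706 (plus) in GRCm38. The exclusion gates removed 21 of 166 cells that passed the collagen gate in WT and 19 of 114 in Lmo7-/-. In WT, 11 of these held Ptprc, 3 held Cdh5 and 14 exceeded the C1q limit, some failing more than one gate. In Lmo7-/- the numbers were 11, 0 and 17. The cells near the threshold differed from those far above it. In WT, the 62 cells with a collagen share from 1.5% to 2% held 341 CPM of Dcn (CPM being the counts of a gene per 1000000 UMIs, both summed over the cells) and Thy1 was detected in 4.84% of them. The 31 WT cells from 2% to 2.5% held 879 CPM of Dcn, with Thy1 in 22.6%, and the 65 WT cells at 5% or more held 1800 CPM, with Thy1 in 78.5%. In Lmo7-/-, Thy1 was detected in 2.08% of 48 cells just outside the threshold, in 20% of 15 cells just inside it and in 82.7% of 52 cells at 5% or more. In both libraries the cells around the threshold were therefore mostly without Thy1, a surface glycoprotein of fibroblasts that T cells also carry.

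The fibroblast markers Dcn, Lum and Pdgfra, which the gate did not use, were found at shares above those in T cells of the same libraries. After thinning each cell to 2000 UMIs, which left out 48 WT and 25 Lmo7-/- collagen-high cells, Dcn (decorin, a proteoglycan that binds collagen fibrils) was detected in 64.9% of WT and 80% of Lmo7-/- collagen-high cells. The unthinned shares were 70.3% and 85.3%. In thinned T cells, which should lack Dcn, it was detected in 2.5% in WT and 1.59% in Lmo7-/- (median depth before thinning 2788.5 and 2677 UMIs). Lum (lumican) was detected in 20.6% and 28.6% of the thinned collagen-high cells and in 0 of 240 and 0 of 314 thinned T cells, which allows shares of up to 1.25% and 0.955% (3 cells of the total). Pdgfra, the PDGF receptor used as a general fibroblast marker, was detected in 28.9% and 38.6%, against 0 of the 240 WT and 0.318% of the Lmo7-/- T cells. Thy1, which T cells carry, was detected in 43.3% and 54.3% of thinned collagen-high cells and in 79.2% and 88.9% of thinned T cells. Among non-immune cells with less than 0.2% collagen UMIs, without thinning, Pdgfra was detected in 29.9% in WT and 23.3% in Lmo7-/- and Dcn in 27.5% and 31.2%, so these markers were not particular to the collagen-high cells. The unthinned shares of Pdgfra in the collagen-high cells were 47.6% and 54.7%. Lum was detected in 0.072% and 0.0242% of those collagen-low cells.

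Genes of other lineages that the gates did not use were low. Summed over each marker list, erythroid, adipocyte and skeletal muscle genes were at 0 in the collagen-high cells of both libraries. Mesothelial genes were at 0 in WT and at 3.51 CPM in Lmo7-/-, all from 2 UMIs of Wt1. Apart from Cdh5, which the gate set to 0, the 5 endothelial genes summed to 16.9 CPM in WT, with 2 of them at 0 and Kdr highest at 7.78 CPM, and to 8.78 CPM in Lmo7-/-, with 3 at 0, against 3720 and 5390 CPM in the endothelial cells. The 6 T cell genes summed to 15.6 and 14.1 CPM and the 8 keratin and epithelial genes to 14.3 and 5.27 CPM. Apart from the C1q genes, which the gate capped, the 5 macrophage genes summed to 117 CPM in WT and 77.3 CPM in Lmo7-/-, led by Fcer1g at 45.4 and 33.4 CPM. Over the same 5 genes, macrophages of these libraries summed to 7770 and 10400 CPM. With the C1q genes the sums in the collagen-high cells were 182 and 156 CPM. The Schwann cell list stood at 85.6 and 59.7 CPM, with Ngfr, which is also expressed by mesenchymal cells, giving 37.6 and 49.2 CPM of it. The pericyte list stood at 314 and 295 CPM, with Rgs5 at 123 and 151 CPM. The part of these RNAs in the library differences given later was not tested.

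Lmo7 itself (chr14:101729957-101934710, plus strand) was nearly undetected. The collagen-high cells held 7 Lmo7 counts in WT (9.08 CPM, exact Poisson interval 3.65 to 18.7) and 4 in Lmo7-/- (7.03 CPM, 1.91 to 18), and the intervals overlapped. By the groups described below, group 1, which had the chromosome profile of the implanted tumor cells, held 5 of the WT and all 4 of the Lmo7-/- counts, and groups 2 to 5 held 2 and 0, too few to compare. In the endothelial cells, the Lmo7 level was 40.8 CPM in WT (15 counts) and 35.6 CPM in Lmo7-/- (9 counts). Lmo7 UMIs were therefore present in endothelial cells of the library labelled Lmo7-/-. The counts come from the 3' end of transcripts and the sources used here do not say whether that end lies in the deleted part, so these counts check neither label.

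Clustering of the 240 cells on the variable genes without the gate genes gave 5 groups. Because groups found by clustering differ by construction in the genes that formed them, their levels are given as a description. Group 1 held 89 cells (60 WT and 29 Lmo7-/-) and was led by Aqp1, Mmp9, Enpp2, Cpe, Scd2, Col7a1, Tnfrsf9, Ero1l, Rhox5 and Pgk1. Group 2 held 52 cells (38 and 14) and was led by Col15a1, Cxcl9, Sparcl1, Acta2, Spon1, Lrrc15, Tfpi2, Nrep, Mest and Mmp13. Group 3 held 42 cells (23 and 19), with C1qtnf3, Eln, Thbs4, Cilp, Col8a2, Col8a1, Cpxm2, Mfap4, Ccn3 and Sfrp1 leading. Group 4 held 40 cells (11 and 29), with Saa3, Ptx3, Serpina3n, Cxcl14, Rarres2, Hp, C3, Cxcl12, Cxcl5 and Mmp3 leading. Group 5 held 17 cells (13 and 4), with Pi16, Htra3, Clec3b, Lrrn4cl, Sema3c, Emilin2, Tnxb, Itih5, Ly6c1 and Anxa3 leading. Since leading genes such as Cxcl9 and Mmp13 themselves differed between the libraries, the numbers of cells per group are given as a description and no difference in them between genotypes is claimed.

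**Figure D1:**
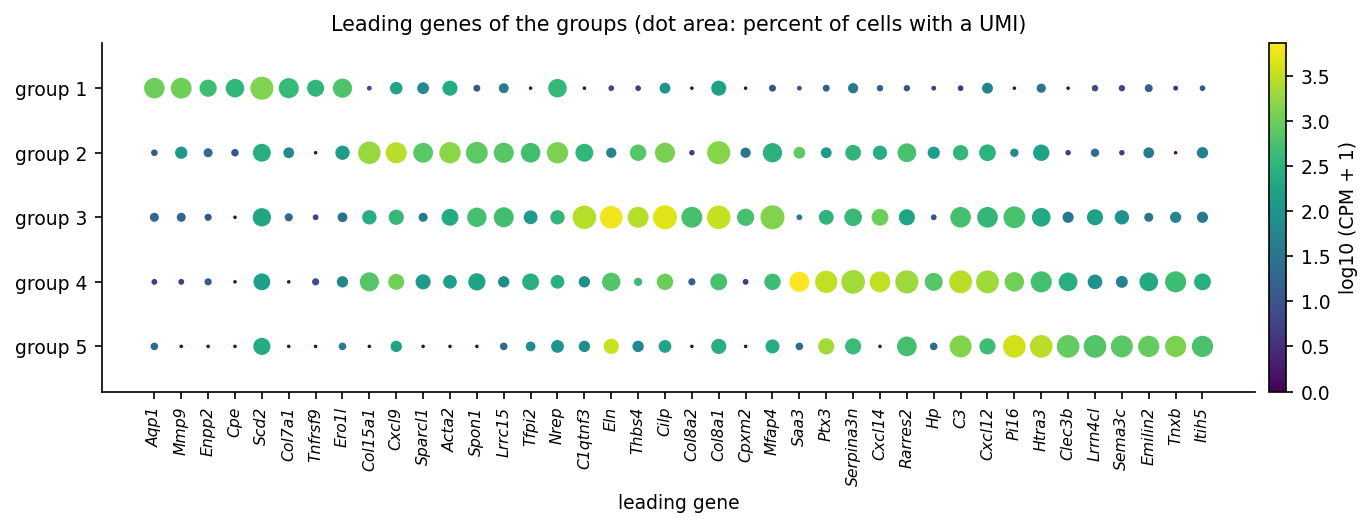
Level of the leading genes (x axis) in each of the 5 groups of collagen-high cells (y axis), both libraries together. Dot colour is log10(CPM + 1) of the summed counts and dot area is the percent of cells with at least 1 UMI. Each gene set is highest in its own group, as its choice requires, and the group 1 genes are low in groups 2 to 5.

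The dot plot of leading genes showed group 1 apart from the others, and most genes of the fibroblast marker list were also lower there. Of the 10 list genes outside the gate, 7 were at least 2-fold lower in group 1 than over groups 2 to 5 (12.3% of all 4253 genes were), 0 were 2-fold higher (18.5% of all genes) and 3 were within 2-fold (Pdgfrb at 152 and 168 CPM, Col5a1 at 1110 and 1820 CPM and Col6a1 at 4760 and 2680 CPM). Thy1 was detected in 4.49% of its cells and stood at 7.69 CPM, against 1460, 508, 1050 and 973 CPM in groups 2 to 5. Lum stood at 9.61 CPM in group 1 and at 77.1, 349, 497 and 662 CPM in groups 2 to 5. Sfrp2 (a secreted WNT modulator) and Ltbp2 (a latent TGF-beta binding protein) were at 0 in group 1, and stood at 1200 and 241 CPM over groups 2 to 5. Lox (lysyl oxidase, which crosslinks collagen) stood at 7.69 CPM in group 1 and 1660 CPM in groups 2 to 5, and Col14a1 at 3.84 and 938 CPM. Dcn stood at 757 CPM in group 1 and 2170 CPM over groups 2 to 5, but at 598 CPM in group 2.

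The proportions of the gate collagens are given as a description of the selected cells, since the gate used these genes and cells near the threshold can enter through a single chain. In WT, group 1 held 5800 Col1a1, 1261 Col1a2 and 2683 Col3a1 counts, which is 0.217 Col1a2 counts per Col1a1 count (interval 0.204 to 0.231). WT groups 2 to 5 together held 14780 Col1a1 and 10201 Col1a2 counts, a ratio of 0.69 (0.673 to 0.708). In Lmo7-/-, the ratio was 0.137 (0.124 to 0.152) in group 1 and 0.695 (0.677 to 0.713) in groups 2 to 5. Col1a2 per Col1a1 ran from 0.582 to 0.827 over groups 2 to 5 of the Lmo7-/- library and from 0.642 to 0.913 over those of WT. Collagen counts found in T cells, which should not make them, stood at 0.404 (0.351 to 0.465) in WT and 0.446 (0.353 to 0.56) in Lmo7-/-, above group 1 in both libraries. In endothelial cells it stood at 0.226 (0.158 to 0.317, from 42 Col1a2 counts) in WT and 0.491 (0.301 to 0.785, from 28) in Lmo7-/-, of which the WT value overlapped group 1. The collagen-low cells described next stood at 0.537 in WT and 0.565 in Lmo7-/-, unlike group 1, and at 1.42 and 1.54 for Col3a1 per Col1a1. Col3a1 per Col1a1 differed less between group 1 and the others, at 0.463 in WT group 1 and 0.538 in WT groups 2 to 5, and it was highest in group 5 at 1.4 in WT and 1.16 in Lmo7-/-. The number of reads per transcript at the 3' end differs between genes, so the ratios compare cells and do not give the ratio of chains.

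The chromosome profile of group 1 lay close to that of the collagen-low non-immune cells, the large population of the tumors with at most 0.2% collagen UMIs. For each chromosome the median over its genes of the log2 ratio to macrophages was taken. In group 1 this median was 0.25 on chromosome 3, 0.23 on chromosome 8 and 0.32 on chromosome 19, and -0.33 on chromosome 7, -0.16 on chromosome 9 and -0.19 on chromosome 14. The collagen-low cells of the WT library gave 0.22, 0.21, 0.26, -0.34, -0.17 and -0.26 on the same chromosomes. Groups 2 to 5 gave -0.06, -0.07, -0.04 and -0.06 on chromosome 7 and -0.12, -0.13, -0.19 and -0.11 on chromosome 19, where their medians were below 0 and that of group 1 above it. Endothelial and T cells lay between -0.07 and -0.04 on chromosome 7 in both libraries, close to groups 2 to 5. On chromosome 19 the WT endothelial and T cells stood at 0.03 and 0.0, above groups 2 to 5 and below group 1.

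**Figure D2:**
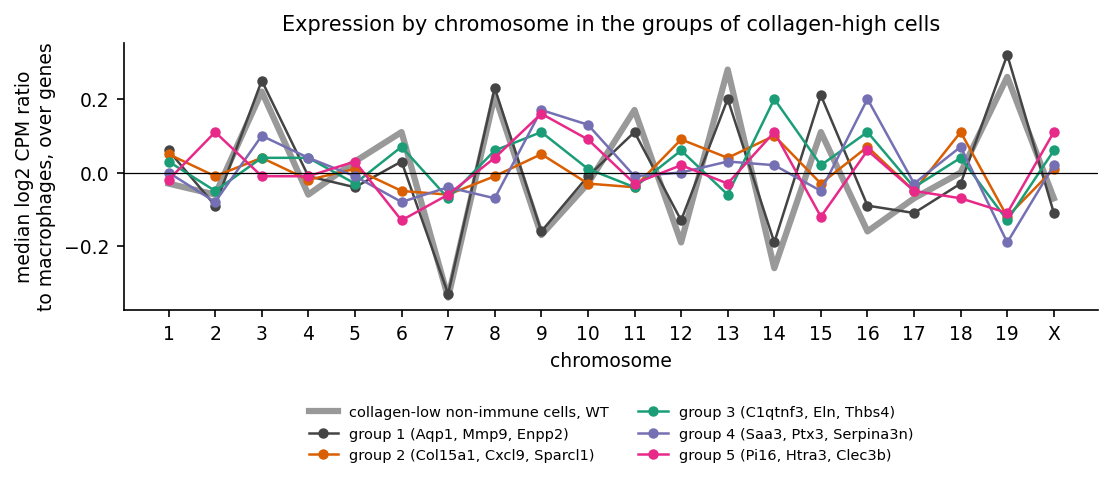
Median over genes of the log2 expression ratio to macrophages (y axis) on each chromosome (x axis) for the 5 groups and for collagen-low non-immune cells. Group 1 follows the collagen-low cells, with -0.33 and -0.34 (WT) on chromosome 7, while groups 2 to 5 lie between -0.07 and -0.04 there.

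A score per cell was made from the same information: the log2 ratio of UMIs from 926 genes on chromosomes 3, 8, 11, 13 and 19 to those from 803 genes on chromosomes 7, 9, 12, 14 and 16, chosen as the chromosomes raised and lowered in the collagen-low cells of both libraries. The median collagen-high cell had 611 UMIs behind its score. The median score was 0.62 in 8693 collagen-low cells and 0.58 in group 1, and 0.11, 0.09, 0.13 and 0.05 in groups 2 to 5. It was 0.14 in 117 endothelial cells, 0.24 in 838 T cells and 0.38 in 7130 macrophages, so that macrophages lay between groups 2 to 5 and group 1. At the limit of 0.53, the 95th percentile over T and endothelial cells, 71.9% of collagen-low cells and 61.8% of group 1 lay above, against 1.92%, 0%, 2.5% and 0% of groups 2 to 5 and 12.5% of macrophages. The score is a range without a gap, and cells near the limit could not be placed singly. The tumor profile was therefore assigned to whole groups, by whether most cells of a group lay above the limit.

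**Figure D3:**
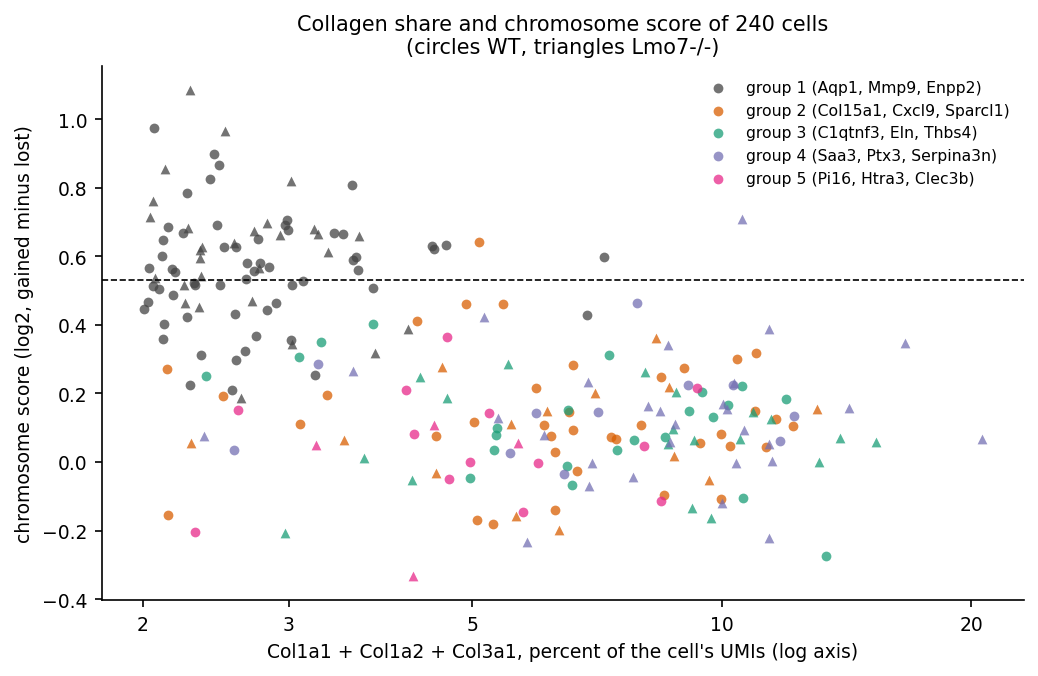
Share of UMIs from the 3 gate collagens (x axis, percent) against the chromosome score (y axis, log2) for each of the 240 collagen-high cells, coloured by group, with circles for WT and triangles for Lmo7-/-. Group 1 lies at low collagen shares (median 2.59%) and high scores (median 0.58), and groups 2 to 5 have median scores between 0.05 and 0.13.

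Among the leading genes of group 1, levels in the collagen-low cells split. Rhox5 (an X-linked homeobox gene) stood at 273 CPM in WT group 1 and 403 CPM in WT collagen-low cells, and Pgk1 (a glycolytic enzyme) at 2210 and 2400 CPM, so for these genes group 1 was not above the collagen-low cells. Both were low in WT groups 2 to 5, at 9.14 and 583 CPM. Enpp2 (autotaxin, which makes lysophosphatidic acid) stood at 243 CPM in WT group 1 and 17.9 CPM in WT collagen-low cells, and at 807 and 19.2 CPM in Lmo7-/-. Col7a1 (the anchoring fibril collagen) stood at 354 and 40.4 CPM in WT and at 470 and 28 CPM in Lmo7-/-. Aqp1 (a water channel) stood at 964 and 232 CPM in WT and at 1010 and 221 CPM in Lmo7-/-. Enpp2, Col7a1 and Aqp1 were thus higher in group 1 than in the collagen-low cells in both libraries. Of the 22 genes of the hypoxia and glycolysis list, 19 were at least 2-fold higher in group 1 than over groups 2 to 5, where 18.5% of all 4253 genes were, and Ero1l and Pgk1 among them are leading genes of the group. Of the rest, 1 was 2-fold lower (Adm, 15.4 and 113 CPM) and 2 were within 2-fold, among them Hk2 (188 and 239 CPM). Car9 (carbonic anhydrase 9) stood at 308 CPM in group 1, 12.2 CPM in groups 2 to 5 and 219 CPM in the collagen-low cells. Slc2a1 (the glucose transporter GLUT1) stood at 490, 93.9 and 326 CPM and Vegfa at 671, 156 and 252 CPM, so the collagen-low cells were also above groups 2 to 5. Mmp9 (gelatinase B) stood at 1020 CPM in group 1 and 43.9 CPM in groups 2 to 5, whereas Mmp2 (gelatinase A) stood at 438 and 1530 CPM.

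Groups 2 to 5 held the genes of the fibroblast marker list, apart from Pdgfrb at 0 in group 5, and their 151 cells (85 WT and 66 Lmo7-/-) are called fibroblast-like. Their Col1a1 level was 37000, 35900, 36100 and 16500 CPM, and their Col1a2 level 23000, 25900, 26100 and 14600 CPM. Postn (periostin) stood at 3760, 4880, 1610 and 1910 CPM in groups 2 to 5 and Fap (fibroblast activation protein) at 139, 112, 118 and 77.8 CPM. The gene levels that set the 240 cells apart from all other kept cells were mostly those of groups 2 to 5: Sfrp2 stood at 731 CPM in collagen-high cells and 0.754 CPM elsewhere, Ogn (osteoglycin) at 245 and 0.336 CPM, Lox at 1020 and 1.86 CPM, Mfap5 (a microfibril protein) at 1240 and 2.62 CPM, and Has1 (hyaluronan synthase 1) at 432 and 0.972 CPM.

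Among the fibroblast-like groups, 13 of the 15 detected genes of the contractile list were highest in group 2, all but Actn1 and Palld. Of the 4253 genes, those with at least 50 counts, 27.9% were. The 13 include Myh11 and Lmod1, with only 2 and 3 counts over groups 2 to 5, and Acta2 is itself a leading gene of group 2. The summed level of the list was 7780 CPM there, against 4890, 2490 and 1750 CPM in groups 3 to 5 and 4520 CPM in group 1. Acta2 (smooth muscle actin, chr19:34241090-34255590, minus strand) stood at 1560 CPM there and at 228, 140 and 0 CPM in groups 3, 4 and 5. Tagln (transgelin) stood at 749 CPM in group 2, 422 CPM in group 3, 30.3 CPM in group 4 and 0 in group 5. Lrrc15, a membrane protein of TGF-beta-exposed fibroblasts, stood at 697 CPM in group 2 and was detected in 67.3% of its cells, close to group 3 with 495 CPM and 66.7%, and stood at 68.3 CPM in group 4. Tnc (tenascin C) was highest in group 2, at 1990 CPM, and 0 in group 5. Rgs5, a pericyte gene, stood at 650 CPM in group 2 and came from 9.62% of its cells, so a few cells of the group carried it.

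The first 4 leading genes of group 3 by fold, C1qtnf3, Eln, Thbs4 and Cilp, encode secreted proteins. Eln (elastin, chr5:134702593-134747323, minus strand) stood at 6110 CPM in group 3, where it was detected in 88.1% of cells, and at 3640 CPM in group 5, where it was detected in 35.3%, against 55 and 648 CPM in groups 2 and 4. Cilp stood at 4960 CPM in group 3 and next highest in group 2, at 1230 CPM. Thbs4 (thrombospondin 4) stood at 2720 CPM in group 3 and 697 CPM in group 2, and C1qtnf3 at 2760 and 345 CPM. Cthrc1, which marks collagen-rich fibroblasts in fibrosis, was highest here at 697 CPM, against 275, 341 and 525 CPM in groups 2, 4 and 5.

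The leading genes of group 4 included Saa3, Ptx3, the complement gene C3 and the chemokine genes Cxcl14, Cxcl12 and Cxcl5. Saa3 (serum amyloid A3) stood at 7310 CPM in group 4 and 218 CPM in the other collagen-high cells, with 1 cell giving 30.7% of its counts in the group and group 2 next highest at 807 CPM, where 1 WT cell gave 79.9% of the WT counts. Ptx3 (pentraxin 3) stood at 3160 CPM in group 4 and 2140 CPM in group 5, and C3 (the central complement protein, chr17:57203970-57228136, minus strand) at 2940 and 1400 CPM, so these genes were also high in group 5, while groups 2 and 3 held 117 and 310 CPM of Ptx3. Cxcl14 stood at 3280 CPM in group 4 and 990 CPM in group 3, with 0 in group 5. Cxcl12, the ligand of Cxcr4, stood at 2030 CPM in group 4 and between 316 and 467 CPM in groups 2, 3 and 5. Il6 stood at 1070 CPM in group 4, 486 CPM in group 3, 231 CPM in group 2 and 117 CPM in group 5. Cxcl1, a neutrophil chemoattractant, was at 4040 CPM in group 4 and between 1850 and 2280 CPM in groups 2, 3 and 5. The monocyte chemoattractants Ccl2 and Ccl7 did not single out group 4, at 2230 and 2150 CPM there and 2060 and 2180 CPM in group 3.

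Group 5 was the smallest and shallowest, with 17 cells and a median of 1737 UMIs. Pi16 (chr17:29317680-29330593, plus strand) stood at 3790 CPM in group 5, 1060 CPM in group 4 and 551 CPM in group 3. Clec3b (tetranectin) stood at 876 CPM in group 5 and 273 CPM in group 4, Sema3c at 759 CPM in group 5 and 94.7 CPM in group 3, and Ly6c1 at 2280 CPM in group 5 and 914 CPM in group 4. Dpp4 stood at 389 CPM in group 5 and at 0, 25.8 and 37.9 CPM in groups 2 to 4. Cd34 (1810 CPM) and Ly6a (Sca-1, 5160 CPM) were also highest in group 5, and Acta2 and Tagln were at 0. In Htra3, 1 cell gave 48.3% of the counts of the group.

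The group 4 leading genes Saa3, Ptx3 and C3, chosen after their promoters had been searched, are shown with the 120 bases before their RefSeq start because they share a match to the C/EBP motif. Acta2 of group 2 is shown beside them for its match to the letters searched for the CArG box, the serum response factor motif. Sequences are from RefSeq (GRCm38.p6), written 5' to 3' on the strand of the gene, and capitals mark the match. The positions are chr7:46715677-46715796 (minus) for Saa3, chr3:66219767-66219886 (plus) for Ptx3, chr17:57228137-57228256 (minus) for C3 and chr19:34255374-34255493 (minus) for Acta2. RefSeq and GENCODE place some starts differently. The Acta2 window lies inside the GENCODE gene span given above, and the Saa3 window overlaps the GENCODE gene, whose span ends at 46715700.
Saa3: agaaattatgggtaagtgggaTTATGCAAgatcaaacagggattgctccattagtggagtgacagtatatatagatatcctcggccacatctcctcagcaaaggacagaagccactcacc
Ptx3: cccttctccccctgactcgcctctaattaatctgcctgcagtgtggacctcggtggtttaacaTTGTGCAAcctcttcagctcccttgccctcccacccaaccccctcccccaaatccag
C3: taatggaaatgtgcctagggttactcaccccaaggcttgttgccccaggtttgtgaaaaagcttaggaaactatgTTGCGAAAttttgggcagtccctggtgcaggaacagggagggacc
Acta2: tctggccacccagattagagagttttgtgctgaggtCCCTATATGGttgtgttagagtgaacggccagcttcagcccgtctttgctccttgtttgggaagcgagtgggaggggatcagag
The C/EBP letters searched were TTGCNNAA on either strand (TTNNGCAA on the other), and 4.15% of the 32851 promoter entries hold them in the same window. The match begins 99 bases before the start in Saa3, 57 in Ptx3 and 45 in C3. Of the 10 leading genes of group 4, 7 were in the promoter table and 3 held the C/EBP letters, whereas 0 of 5, 0 of 7, 0 of 6 and 0 of 7 leading genes in the table did so in groups 1, 2, 3 and 5. The AP-1 letters TGANTCA were searched too, and were held by 3.41% of entries, by 3 of the 7 leading genes of group 2, by 1 each in groups 1, 4 and 5 and by 0 in group 3. The CArG box, searched on both strands, was held by 0.658% of entries, and the match begins 84 bases before the Acta2 start. A match describes letters in the window and not a bound site.

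The design asked which genes of the collagen-high cells differed between tumors of Lmo7-/- and WT hosts. Levels were compared as the log2 ratio of CPM, Lmo7-/- over WT, for 4253 genes whose counts reached 50 in the libraries combined. Of these, 60 genes (1.41%) were at least 2-fold higher in the Lmo7-/- library and 92 (2.16%) at least 2-fold lower, and the median over all genes was -0.06. With TMM scaling the counts were 81 higher and 68 lower, so which direction held more genes depended on the scaling. As group 1 had the tumor chromosome profile, the same comparison was made in groups 2 to 5 alone. There, of 2520 genes, 47 (1.87%) were at least 2-fold higher and 45 (1.79%) at least 2-fold lower, with a median of -0.04.

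The 12 highest ratios included a chemokine, an alarmin and a collagenase. Cxcl9, an interferon-gamma-induced ligand of the T cell receptor Cxcr3, stood at 463 CPM in WT and 1550 CPM in Lmo7-/- (log2 ratio 1.75, interval 1.57 to 1.93) and at 1.60 on the log2 scale in groups 2 to 5. Within group 2 it stood at 1490 CPM in WT and 5450 CPM in Lmo7-/-, within group 3 at 257 and 549 CPM, and within group 4 at 113 and 1520 CPM. Cxcl9 was also higher in the Lmo7-/- library in collagen-low cells (1.22), macrophages (1.06) and endothelial cells (1.37), so the difference was seen in each of these cell classes and not in the collagen-high cells alone. Il33, an alarmin kept in the nucleus of stromal cells, stood at 200 and 576 CPM (1.53, 1.25 to 1.81) and was higher in Lmo7-/- within group 2 (156 and 237 CPM), group 3 (341 and 808 CPM) and group 4 (475 and 1140 CPM).

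Mmp13 (collagenase 3, which cleaves fibrillar collagen) stood at 63.6 CPM in WT and 302 CPM in Lmo7-/- (log2 ratio 2.25, 1.78 to 2.74), and at 211 and 1240 CPM within group 2. It was detected in 11 of 85 WT and 10 of 66 Lmo7-/- cells of groups 2 to 5, and 1 cell gave 20.4% of all its counts, so few cells carried the difference. In macrophages, which also expressed it, the ratio was 0.24. Serpinb2 (plasminogen activator inhibitor 2) stood at 15.6 and 94.8 CPM (2.61, 1.69 to 3.65) but came from 12 cells, of which those in Lmo7-/- lay mostly in group 4. Sfrp4 stood at 14.3 and 73.8 CPM (2.37, 1.39 to 3.48), again with most of its counts in group 4. Adm (adrenomedullin, a vasodilator peptide induced in hypoxia) stood at 33.7 and 132 CPM (1.97, 1.3 to 2.67). Of its 75 Lmo7-/- counts, 62 lay in group 4, and within group 2 it stood at 50.1 CPM in WT and 43.1 CPM in Lmo7-/-.

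The other named genes with high ratios were Gpm6b (1.85), Gpr176 (1.74), Cyp7b1 (1.64), Sned1 (1.61), Cyp1b1 (1.55) and Id3 (1.53). Of the Lmo7-/- counts, group 4 held 48 of 60 for Cyp7b1 and 38 of 45 for Sned1. Cyp1b1, a cytochrome of estrogen metabolism, was absent from group 1 and stood at 176 CPM in WT and 437 CPM in Lmo7-/- over groups 2 to 5. Of the 12 genes, 7 were higher in Lmo7-/- in each of groups 2, 3 and 4, the groups with at least 10 cells in each library, where 13% of all 4253 genes were. As the 12 were chosen for their ratio over these same cells, the count describes them only. Mmp13 is 1 of the 7, but 1 cell gave 93.8% of its Lmo7-/- counts in group 3 and 1 cell all of them in group 4, and without that cell group 4 held none in either library.

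**Figure D4:**
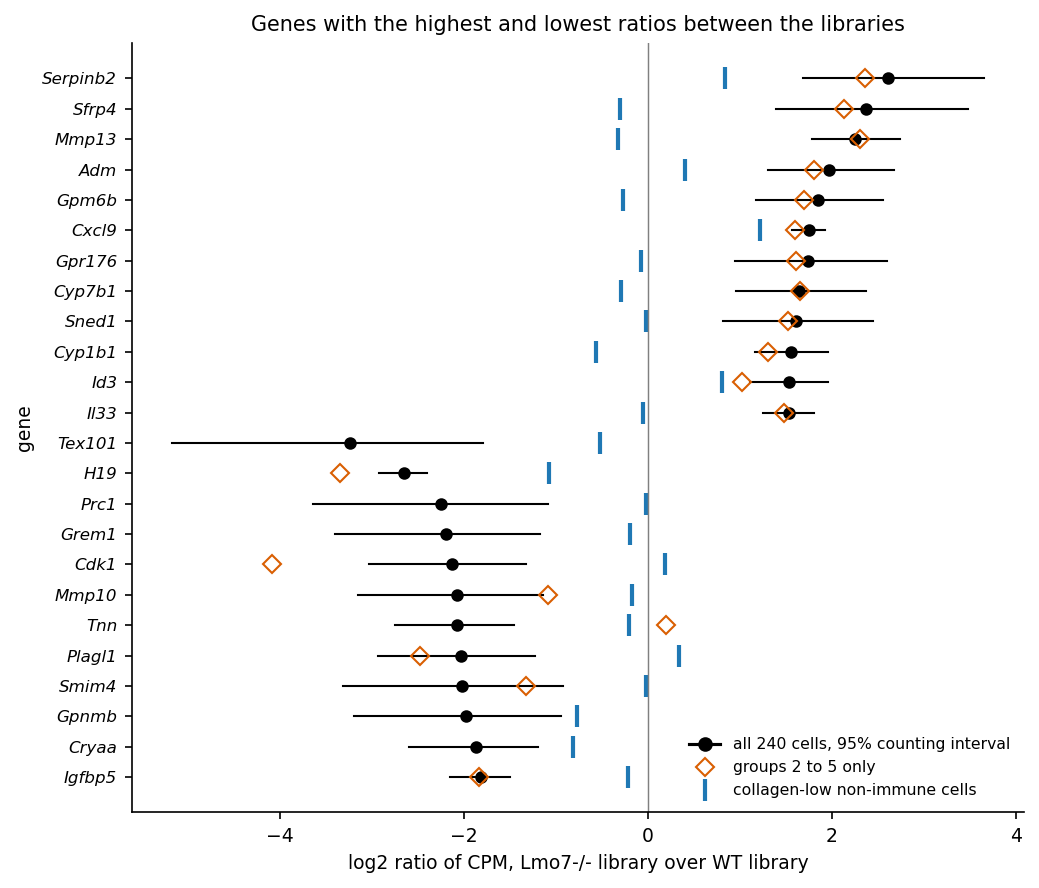
Log2 ratio of CPM, Lmo7-/- library over WT library (x axis), of the 12 highest and 12 lowest named genes (y axis), in all collagen-high cells with 95% count-split intervals and in groups 2 to 5. H19 lies at -2.65 and -3.35 in these sets, whereas Tnn moves from -2.08 to 0.20 once group 1 is left out.

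Among the 12 lowest ratios, H19, an imprinted growth-related noncoding RNA, had the most counts. It stood at 1520 CPM in WT (1175 counts) and 242 CPM in Lmo7-/- (138 counts), a log2 ratio of -2.65 (-2.92 to -2.40), and at 2240 and 220 CPM in groups 2 to 5 (-3.35). Within group 2 H19 stood at 2180 and 86.2 CPM, within group 3 at 4200 and 748 CPM and within group 4 at 226 and 5.71 CPM. In group 4, 1 cell gave 80% of the 20 WT counts and the Lmo7-/- level was 1 count, and in group 2, 1 cell gave 87.5% of the 8 Lmo7-/- counts. Without the cell with most counts, the levels were 1540 and 11.2 CPM in group 2, 3770 and 602 CPM in group 3 and 52.1 and 0 CPM in group 4. H19 was detected in 32 of 85 WT and 12 of 66 Lmo7-/- cells of groups 2 to 5. H19 was lower in the Lmo7-/- library in collagen-low cells (-1.08) and macrophages (-1.74) too. Plagl1, an imprinted zinc finger gene, stood at 108 and 26.3 CPM (-2.03, -2.93 to -1.23) and at -2.48 on the log2 scale in groups 2 to 5, while in collagen-low cells its ratio was 0.34. Igfbp5, which binds insulin-like growth factors, stood at 596 and 169 CPM (-1.82, -2.15 to -1.50) and at -1.84 in groups 2 to 5. It did not go one way in every group, at 1090 CPM in WT and 334 CPM in Lmo7-/- within group 2 but 22.7 and 210 CPM within group 3.

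Several low ratios came from group 1 instead. Tnn (tenascin W) stood at 186 and 43.9 CPM (-2.08), but 131 of its 143 WT counts were in group 1, and groups 2 to 5 held 12 counts in each library. Tex101 (66.2 and 7.03 CPM), Grem1 (a BMP antagonist, 72.7 and 15.8 CPM), Cryaa (141 and 38.6 CPM) and Gpnmb (62.3 and 15.8 CPM) likewise held most of their counts in group 1. The proliferation genes Cdk1 (115 and 26.3 CPM, -2.13) and Prc1 (58.4 and 12.3 CPM, -2.25), with Smim4 (-2.02) and Mmp10 (-2.08), complete the 12. They were lower in groups 2 to 5 too, where Cdk1 held 39 WT and 2 Lmo7-/- counts (-4.09) and Prc1 16 and 3 (-2.22). Smim4 held 23 and 8 counts there (-1.33) and Mmp10 17 and 7 (-1.09, -2.6 to 0.26). Of the 12, 3 were lower in Lmo7-/- in each of groups 2, 3 and 4, where 12.7% of all genes were.

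The matrix lists held about as few genes past the fold as all genes, of which 1.41% were higher and 2.16% lower. None of the 8 fibrillar collagen genes with enough counts was 2-fold apart (median log2 ratio 0.19, and -0.06 in groups 2 to 5), and 3 of them are gate genes whose level the selection constrained. The median of the other 5 was -0.04, from -0.24 for Col5a3 to 0.71 for Col11a1. None of 21 collagen-processing genes such as Sparc, none of 12 proteoglycan genes and none of 24 matrix glycoprotein genes was 2-fold apart, with medians of 0.11, 0.18 and 0.05. Of 14 other collagen genes, Col23a1 was lower (-1.29) and the median was -0.35. In groups 2 to 5 alone, Eln was 2-fold lower (-1.09). None of the 13 fibroblast markers, gate collagens included, was 2-fold apart (median 0.17, and 0.08 for the 10 outside the gate), nor any of 10 myofibroblastic genes (median -0.06, and -0.30 in groups 2 to 5) or 12 contractile genes (median -0.14). Of 10 inflammatory fibroblast genes 2 were higher, Lif and C3, with a median of 0.32, or 0.15 in groups 2 to 5, and the median was -0.10 with equal group weights. Of 17 matrix proteases, Mmp13 was higher and Mmp10 lower.

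The chemokine and cytokine list held the most genes past the fold. Of 19 genes, 6 were at least 2-fold higher and 0 lower, with a median log2 ratio of 0.81, and in groups 2 to 5 the count was 4 and the median 0.51, beside 1.87% of all genes. The 6 were Cxcl9, Cxcl5 (1.76), Il33, Ccl8 (1.34), Lif (1.18) and Saa3 (1.1). Cxcl5 was detected in 4 of 85 WT and 14 of 66 Lmo7-/- cells of groups 2 to 5. For Cxcl5, 1 cell gave 57.9% of the WT counts and another 35.7% of the Lmo7-/- counts. All 23 of its Lmo7-/- counts in group 2 came from 1 cell. Of 10 complement genes 3 were higher, among them C3 (1.45) and Cd59a (1.37, a membrane inhibitor of complement), with a median of 0.82, and 2 in groups 2 to 5, with a median of 0.61. Several of these are leading genes of group 4, which gave 11 of the 145 WT and 29 of the 95 Lmo7-/- cells.

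**Figure D5:**
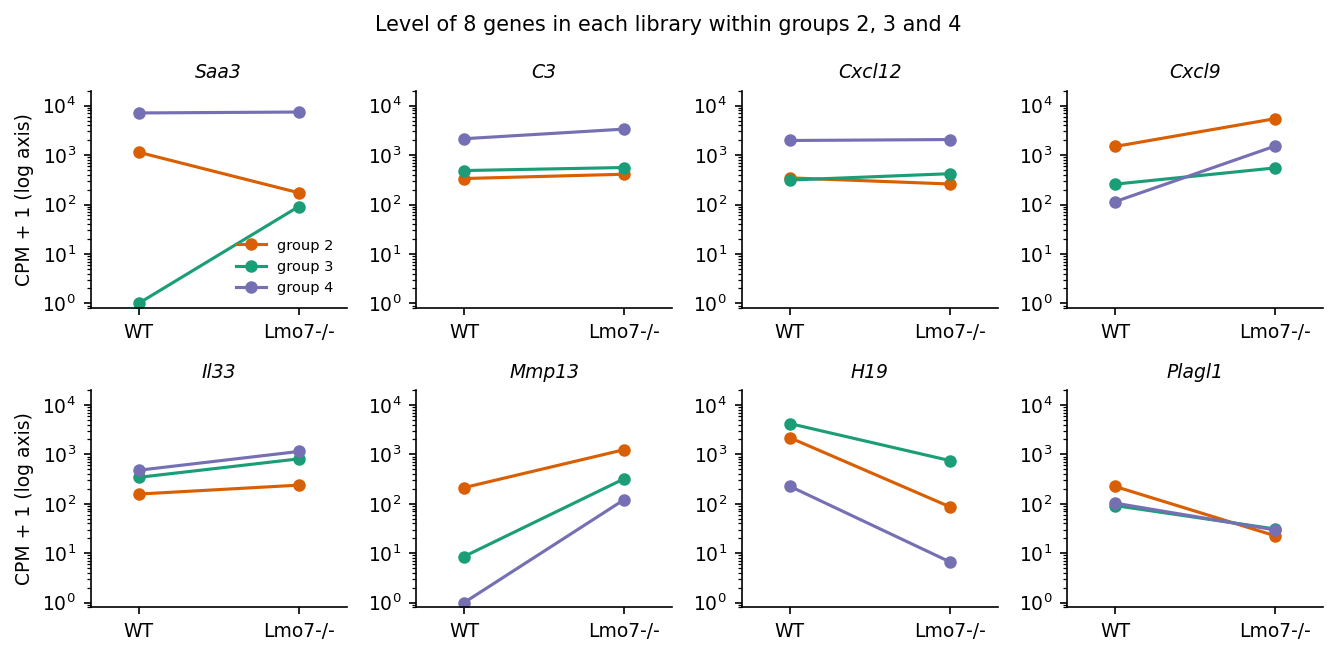
CPM (y axis, log scale) of 8 genes in the WT and Lmo7-/- library, with 1 line for each of groups 2, 3 and 4. Cxcl9 and Il33 are higher and H19 lower in the Lmo7-/- library in each of the 3 groups, while Cxcl12 in group 4 stands at 1970 CPM in WT and 2060 CPM in Lmo7-/-.

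The plot of levels within groups shows how these ratios varied from group to group. Within group 4, Cxcl12 stood at 1970 CPM in WT and 2060 CPM in Lmo7-/-. Saa3 stood at 7110 and 7420 CPM there, but 1 cell gave 69% of its WT counts and another 45.6% of its Lmo7-/- counts, and without these cells the levels were 2840 and 4310 CPM. Cxcl9 without the cell with most counts in each library stood at 1370 and 4710 CPM in group 2 and at 68.8 and 1030 CPM in group 4. When CPM was averaged with equal weight over groups 2, 3 and 4, the log2 ratio went from 0.99 to 0.06 for Cxcl12, from 1.76 to 0.57 for Cxcl5 and from 1.45 to 0.55 for C3. For Saa3 it went from 1.1 to -0.10, but without the cell with most counts in each group and library it was 0.53, so its direction rested on single cells. The ratio of Ccl8 (a monocyte chemoattractant) was 1.34 before and 1.26 after, that of Cd59a 1.37 in both, that of Il33 1.53 and 1.17, and that of Lif 1.18 and 0.60. In macrophages, too, several of these genes were higher in the Lmo7-/- library. Ccl8 stood at 119 and 300 CPM (1.34), Cd59a at 1.67 and 3.9 CPM (1.22) and Il33 at 2.06 and 5.75 CPM (1.48). C3 stood at 46.4 and 97.8 CPM (1.08) and Saa3 at 12.4 and 30.3 CPM (1.28). The ratio of Lif was 0.03 in macrophages and -0.97 in collagen-low cells. Cxcl9 and H19 were at 2.01 and -2.97 with equal weights. How far the numbers of cells per group differ between hosts, and not between these 2 libraries, was not tested.

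The counts of the lists below stand beside 1.41% higher and 2.16% lower among all 4253 genes. Of the 10 BMP and WNT pathway genes 2 were higher, Sfrp4 and Dkk3 (1.05), and 1 lower, Grem1, with a median of 0.34. Of 8 insulin-like growth factor genes 1 was lower (Igfbp5). Of 13 type I interferon response genes 0 were higher and 1 lower (Ifit3, -1.50), with a median of -0.21, and of 15 interferon gamma response genes 1 was higher (Cxcl9), with a median of 0.40. None of 16 MHC class I genes was 2-fold apart (median 0.05, and 0.35 in groups 2 to 5). Of 16 TGF-beta pathway genes 1 was lower (Tgfbi, -1.20), but 252 of its 277 WT counts were in group 1. In groups 2 to 5 none of 12 TGF-beta pathway genes was 2-fold apart. Of 11 PDGF, FGF and HGF genes 1 was higher (Fgf7, 1.35, a growth factor for epithelium). Of the 34 Lmo7-/- counts of Fgf7, 32 lay in group 4, where it stood at 136 CPM in WT and 183 CPM in Lmo7-/-. With equal group weights the ratio of Fgf7 was 0.32. Of 20 hypoxia and glycolysis genes 1 was higher (Adm). Of 18 genes of dissociation stress 1 was higher (Dnajb1, 1.48) and the median was 0.28, or 0.07 in groups 2 to 5. In groups 2 to 5 none of the 18 was 2-fold apart. Dnajb1 stood at 198 CPM in WT and 1010 CPM in Lmo7-/- within group 1, and its ratio was 0.71 with equal group weights. None of 18 mesenchymal transcription factors was 2-fold apart. Lrp1, a multiligand endocytic receptor of fibroblasts, stood at 328 CPM in WT and 455 CPM in Lmo7-/- (0.47, 0.22 to 0.73). It did not go one way in every group. Lrp1 was lower in Lmo7-/- within group 1 (129 and 64.1 CPM) and group 2 (395 and 312 CPM). It was higher within group 3 (424 and 848 CPM) and group 4 (542 and 719 CPM). Of 4 cycling genes with enough counts 2 were lower (median -1.16), the list being at 518 CPM in WT and 244 CPM in Lmo7-/-, led by Top2a at 205 and 128 CPM. The direction of this median depended on the selection, as it was 0.17 with a 1% collagen gate and 0.21, from 1 gene, without cells holding UMIs of other lineages, and groups 2 to 5 left 1 gene with enough counts.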

How the data were processed

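Libraries were made with droplet 3' chemistry. The deposited matrices hold UMI counts per gene and barcode, made by the authors with Cell Ranger (2.1.1 and mm10 per the submitters' processing notes, while the matrix headers name software 3.0.0). Counts were used as deposited, with no background correction. No doublet caller was run, and doublets passing the gates were kept. Members were clustered with scanpy 1.11.5 (1500 variable genes without the gate genes, 10 components, 15 neighbours, Louvain at resolution 1.0). Counts were summed per library and divided by the summed total, times 1000000 (CPM). CPM intervals are exact Poisson, and ratio intervals come from exact binomial splits (Python 3.11.15, scipy 1.17.1). The ratio script was checked on simulated data.

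Named genes were the 12 highest and 12 lowest ratios among genes with at least 50 counts, seen in at least 10 members and with at most 25% of counts from 1 cell, the 20 genes highest over other cells, Lmo7, Lrp1, the list genes with most counts or past the fold, and 10 leading genes per group. Gate collagens, mitochondrial and ribosomal genes and unnamed gene models were left out of the ratios named. Members and lists were chosen with earlier results of these data known. Alternatives covered gates, cell filters, scaling, depth, weights and minimum counts. Gene positions are from GENCODE (GRCm38). The values of 1 complement gene are not reported here.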

Additional observations from a re-analysis of the deposited data

Results flagged for a closer look

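Among the 24 genes with the highest and lowest ratios, 3 were at least 2-fold apart one way in the collagen-high cells and the other way in the endothelial cells, with both intervals away from 0. Il33 was higher in the Lmo7-/- library in collagen-high cells (log2 ratio 1.53) and lower in endothelial cells (-2.67, with 37 WT and 4 Lmo7-/- counts). Igfbp5 was lower in collagen-high cells (-1.82) and higher in endothelial cells (1.51, with 25 WT and 49 Lmo7-/- counts). Sned1, a matrix protein, was higher in collagen-high cells (1.61). In endothelial cells it had 9 WT and 0 Lmo7-/- counts, so its ratio there was taken against a floor of 3 counts (-1.05). Outside those 24 genes, Eln also went opposite ways, at -0.85 (-1.0 to -0.70) in collagen-high cells and 2.05 (1.72 to 2.39, with 102 WT and 291 Lmo7-/- counts) in endothelial cells. With 1 library per genotype these differences were not tested.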

How the results depend on the processing

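Of 318 values of the 12 highest and 12 lowest named genes, 263 moved by less than their counting error, 49 moved by more than that and kept their direction, and 6 reversed. The reversals were Tnn in groups 2 to 5 (0.20) and with equal group weights (0.32), Grem1 (1.95) and Tex101 (0.95) with equal weights, and Cdk1 (0.12) and Prc1 (0.03) at a 1% collagen gate. Groups 2 to 5 held 1 WT and 2 Lmo7-/- counts of Grem1, and 1 count of Tex101 in each library. These are too few to give a direction for either gene. Other named genes were not among the 318 values. Some of them turned with equal weights, such as Saa3 (1.1 to -0.10) and Cxcl1 (0.41 to -0.09). The share of members in WT and Lmo7-/- was 2.45% and 1.99% at a 1% gate, 0.569% and 0.506% at 4%, 0.731% and 0.565% without cells holding UMIs of other lineages, and 0.628% and 0.556% for groups 2 to 5. It was 0.857% in WT with Dcn or Pdgfra required and 1.08% in Lmo7-/- under the lenient filter. The genes 2-fold higher and lower numbered 36 and 27 after thinning, 111 and 159 with the mean of CPM per cell, 189 and 370 at 20 counts, 32 and 26 at 100 counts, and 37 and 39 with equal weights. Those lower numbered 52 at a 4% gate and 45 in groups 2 to 5. TMM scaling moved all ratios by 0.07.

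At the 1% gate the list medians were myofibroblastic -0.34, inflammatory 0.21, cycling 0.17 (reversed), fibrillar collagens 0.06, type I interferon 0.03 and hypoxia 0.09. At 4% they were -0.29, 0.19, -1.55, -0.07, -0.08 and -0.31. Without cells holding UMIs of other lineages, cycling reversed to 0.21, fibrillar collagens gave 0.09, type I interferon 0.01 and hypoxia -0.45. Groups 2 to 5 gave myofibroblastic -0.30, inflammatory 0.15 and fibrillar collagens -0.06. After thinning, the values were myofibroblastic -0.42, inflammatory 0.70, cycling -0.41, fibrillar collagens 0.06 and type I interferon -0.01. With the mean of CPM per cell they were -0.17, 0.60, -0.86, 0.30 and -0.06, and hypoxia 0.07. With equal weights, myofibroblastic was 0.08, inflammatory -0.10, fibrillar collagens -0.04 and type I interferon -0.04. Cycling was -0.83 under the lenient filter and -1.63 at 20 counts. The median on chromosome 8 was -0.03 (WT) and 0.01 (Lmo7-/-) in groups 2 to 5, and 0.00 in Lmo7-/- at 4%. On chromosome 7 it was -0.04 and -0.06 in groups 2 to 5, -0.09 in WT at 4%, and in Lmo7-/- -0.30 at 1% and -0.07 without cells holding UMIs of other lineages. The cause of these movements was not tested. Group-restricted and equal-weight values, and those without the cell with most counts, were added after seeing the data.

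Clustering at other settings gave 4 or 6 groups, and 236 to 240 of the 240 cells stayed on the same side of the chromosome profile. No paired analysis was possible because each genotype has 1 library. At 240 cells, genes under 50 counts entered no ratio between the libraries in the collagen-high cells but the one at 20 counts. Lmo7 was below that limit and its levels were given. Some genes of the contractile and hypoxia tallies between groups were also below it. Group 5, with 4 Lmo7-/- cells, was left out of the library values within groups, apart from the proportions of the gate collagens.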

Other observations

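Imprinted genes other than H19 and Plagl1, chosen after their values were seen, did not share one direction in the collagen-high cells. Mest held 90 counts in WT and 5 in Lmo7-/- (log2 ratio -3.73), with 1 cell giving 41.2% of its counts in group 2, and Grb10 held 101 and 42 counts (-0.83). Meg3 held 183 and 157 counts (0.22), and the ratio of Ndn was 0.65, of Sgce 0.27, of Igf2r -0.26 and of Gnas -0.19.

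MHC class II genes were far below their macrophage levels in each group of collagen-high cells. H2-Aa stood at 173, 143, 263, 87.2 and 136 CPM in groups 1 to 5, both libraries together, and H2-Ab1 at 244, 194, 224, 102 and 117 CPM. In the collagen-low cells, H2-Aa stood at 292 CPM in WT and 506 CPM in Lmo7-/- and H2-Ab1 at 238 and 362 CPM. In macrophages, H2-Aa stood at 8760 and 12300 CPM and H2-Ab1 at 8900 and 11900 CPM. The part of background RNA from macrophages in these levels was not tested.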
